A study of Mus musculus with 4 samples.

Results

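The expression of 36 genes of the heat shock response and the unfolded protein response (UPR) was examined in macrophages of G3bp1 f/f and G3bp1mac-/- mice. The genes were taken by symbol from the 34745 genes of the deposited table, and each symbol matched 1 row. They comprise 12 cytosolic or nuclear members, 3 mitochondrial members and 21 members of the endoplasmic reticulum (ER). All 36 were among the 12418 genes that passed the filter on low counts.

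Total RNA of cultured primary mouse macrophages was sequenced in 4 libraries to find the genes that differ between the genotypes. The study's text describes the cells of the transcriptome analysis as bone marrow-derived macrophages (BMDMs). The WT libraries came from G3bp1 f/f mice, whose floxed G3bp1 gene is intact (n = 2), and the KO libraries from G3bp1mac-/- mice, in which a Cre recombinase under the Lyz2 promoter deletes it (n = 2). Lyz2 is active across the myeloid lineage, so the deletion is not restricted to macrophages. All cells carried the floxed allele, were grown in DMEM with serum and antibiotics, and had no stress treatment in the labels. G3BP1 is a scaffold protein of stress granules, which are condensates of untranslated mRNA. The sources used here do not tie an age or sex to the donors of these cells, and do not say what the replicate numbers 1 and 2 mark. Nothing in the labels says that the libraries came from separate animals, so p-values measure only the spread between these samples, which may be technical.

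Cells that are heated or otherwise load their cytosol with unfolded protein release the transcription factor HSF1, which binds heat shock elements and switches on cytosolic chaperones of the HSP70, HSP90, HSP40 and small heat shock protein families. In the ER, the sensors IRE1 (Ern1), ATF6 and PERK respond to unfolded protein, and the resulting factors XBP1 and cleaved ATF6 act on ER stress elements to raise chaperones, disulfide isomerases and the machinery that sends misfolded proteins back to the cytosol for degradation. Macrophages secrete and recycle large amounts of membrane protein, and many of these genes are expressed in them without stress.

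The sequences these factors are known to read were looked up in the RefSeq promoter windows of 250 bases before to 50 bases after an annotated start site (build GRCm38.p6). Windows existed for 27 of the 36 members, 7 cytosolic, 2 mitochondrial and 18 ER. Matches were exact and taken on both strands. An element with any fixed base changed was not counted, so a window without a match may still hold an imperfect one. The ER stress element, CCAAT followed by 9 bases of any kind and CCACG, was found in 8 of the 18 ER members and in 0 of the 7 cytosolic and 0 of the 2 mitochondrial members, against 0.119% of all 32851 windows. The second ER stress element, ATTGG and CCACG with 1 base between them, was found in Dnajb11 and Herpud1 and in 0.0365% of all windows. The heat shock element, GAA, TTC and GAA each 2 bases apart, was found in 1 cytosolic member (Hsph1), in both mitochondrial members and in 0 of the 18 ER members, against 0.603% of all windows. The unfolded protein response element, TGAC followed directly by GTGG, was in 0 windows of members and in 0.676% of all windows. CCAAT alone, the box of the factor NF-Y and a part of the ER stress element, was in 37.4% of all windows, in 16 of the 18 ER members, in 5 of the 7 cytosolic members and in 1 of the 2 mitochondrial members. These matches describe the letters in the windows and do not show that a factor was bound.

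The stretches below are the matches with the 10 bases on either side, written 5′ to 3′ along the strand of the gene, with the fixed bases of the element in capitals. They are shown because 8 ER members share the ER stress element. The members were chosen as genes of the response whose factors read this element, so its presence is not independent of that choice. Capitals that begin with CGTGG mark an element lying in the opposite orientation.
Hspa5, chr2:34772015-34772053, + strand: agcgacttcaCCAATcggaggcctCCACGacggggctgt
Hsp90b1, distal match, chr10:86705628-86705666, − strand: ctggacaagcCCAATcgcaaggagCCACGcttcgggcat
Hsp90b1, proximal match, chr10:86705523-86705561, − strand: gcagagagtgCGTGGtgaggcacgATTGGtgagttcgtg
Dnajc3, chr14:118937817-118937855, + strand: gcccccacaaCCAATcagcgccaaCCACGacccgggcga
Creld2, chr15:88819510-88819548, + strand: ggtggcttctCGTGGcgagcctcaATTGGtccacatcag
Calr, chr8:84847065-84847103, − strand: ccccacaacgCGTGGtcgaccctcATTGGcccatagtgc
Canx, chr11:50325790-50325828, − strand: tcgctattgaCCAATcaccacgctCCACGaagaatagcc
Pdia6, chr12:17266481-17266519, + strand: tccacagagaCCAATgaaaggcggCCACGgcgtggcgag
Syvn1, chr19:6046522-6046560, + strand: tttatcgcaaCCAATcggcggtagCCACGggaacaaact
Herpud1, second ER stress element, chr8:94386367-94386397, + strand: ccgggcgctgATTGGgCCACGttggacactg

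Hsp90b1 was the only member window with more than 1 match to the ER stress element. Measured from the annotated start site, the element began at position -65 in Hspa5, -44 in Syvn1 and -162 in Calr, and that of Herpud1 at -52. The 250 bases before the start site are given in full for Hspa5, which encodes BiP, the HSP70 of the ER, and for Herpud1, the member with the widest spread between libraries, with the same capitals.
Hspa5, chr2:34771840-34772089, + strand: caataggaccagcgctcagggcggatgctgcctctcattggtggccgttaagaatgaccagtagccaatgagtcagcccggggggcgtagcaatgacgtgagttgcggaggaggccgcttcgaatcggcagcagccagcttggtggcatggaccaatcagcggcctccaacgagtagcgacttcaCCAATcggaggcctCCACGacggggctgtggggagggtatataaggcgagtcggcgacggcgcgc
Herpud1, chr8:94386179-94386428, + strand: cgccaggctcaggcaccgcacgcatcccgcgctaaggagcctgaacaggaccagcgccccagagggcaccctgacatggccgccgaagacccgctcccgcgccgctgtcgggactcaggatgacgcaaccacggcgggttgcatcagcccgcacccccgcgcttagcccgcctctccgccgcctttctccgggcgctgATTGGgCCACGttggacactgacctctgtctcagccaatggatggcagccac

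The genes of the mitochondrial HSP60 and HSP10, Hspd1 and Hspe1, lie head to head on chromosome 1. RefSeq gives 2 start sites of Hspd1, and the heat shock element lies between the Hspe1 start and 1 of them. The window of the other Hspd1 start held no match. It is shown along each gene, and overlapping repeats of the element make it readable from either side.
Hspd1, chr1:55088054-55088086, − strand: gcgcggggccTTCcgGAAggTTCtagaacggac
Hspe1, chr1:55088049-55088081, + strand: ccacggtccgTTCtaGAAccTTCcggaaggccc

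**Figure D1:**
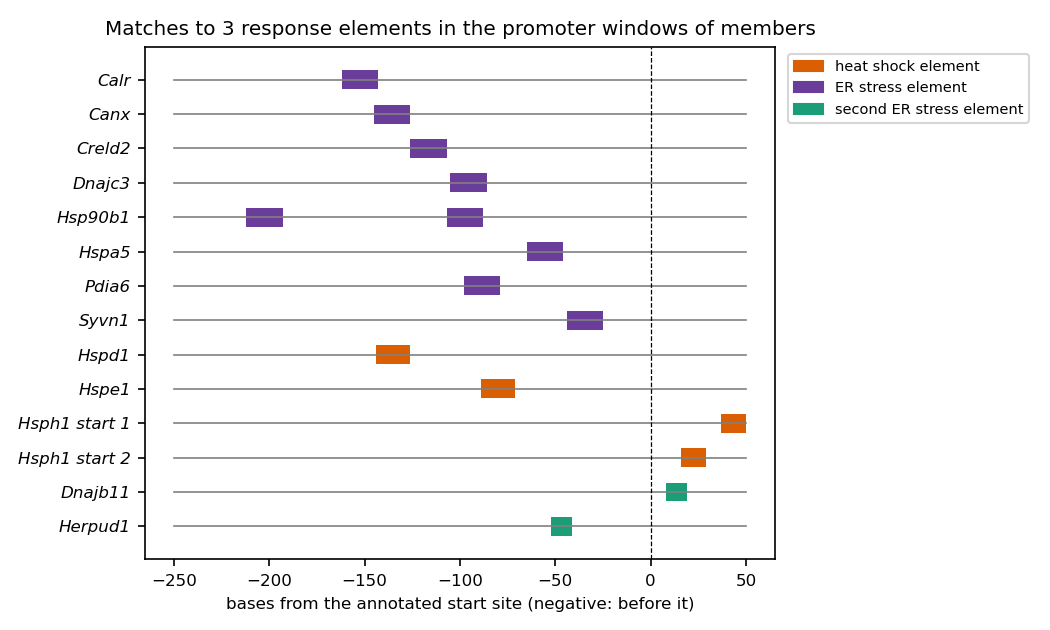
Position of each match to the heat shock element, the ER stress element and the second ER stress element along the promoter windows of members that hold one. The horizontal axis is in bases from the annotated start site, and each bar spans the element. Hsph1 has a row for each of its annotated start sites. Bars of the ER stress element lie before the start site in all 8 genes, from position -212 in Hsp90b1 to -44 in Syvn1.

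The 4 libraries held between 16724241 and 19747909 counts, and are compared within a gene as CPM, the count scaled for library size on totals corrected by the trimmed mean of M-values (TMM). A count of 3 corresponded to between 0.152 and 0.188 CPM in a library, a floor that covers counting error only. Deposited FPKM, which are divided by a gene length, are used to compare genes. The length they imply is longer than the whole locus for some members, among them Hspa8 (9084 bases) and Hspa5 (6952 bases). The order of genes by FPKM and the shares by compartment depend on that length. The targeted gene G3bp1 had 104 and 180 CPM in WT and 70.1 and 117 CPM in KO, so the genotypes overlapped. Its fitted log2 fold change was -0.61 (SE 0.40, edgeR quasi-likelihood test, adjusted p = 0.904), and within the libraries numbered 1 and 2 the log2 ratios were -0.57 and -0.63. WT and KO are used here as the labels give them. Reads were counted per gene, so it cannot be seen which exons were covered. The first principal component (55.9% of the variance) separated the libraries by number and the second (35.0%) by genotype. Macrophage markers summed to 26635 and 24758 CPM in WT and 21231 and 24739 CPM in KO, with a median log2 fold change of -0.18. The 12 stromal markers summed to 108 and 122 CPM in WT and 486 and 452 CPM in KO, with none at 0, and the 5 proliferation markers to 27.3 and 48.5 against 73.1 and 73.5 CPM. Several other lists summed lower in KO, among them the markers of B and plasma cells with 45.1 and 48.5 CPM in WT and 23.8 and 28.2 CPM in KO, those of mast cells and basophils with 81.6 and 77.5 against 33.4 and 41.2 CPM, and those of neutrophils with 22.1 and 21.2 against 7.72 and 11.3 CPM. In bulk RNA, fewer cells of a type and less RNA per cell cannot be told apart.

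Levels of the members were compared per length, with the length that the deposited FPKM imply. Of the summed FPKM of the 36 members, the ER members held between 56.3% and 61.7% in a library, the cytosolic members between 20.1% and 26.4% and the 3 mitochondrial members between 15.4% and 18.3%. Calr, which encodes the lectin chaperone calreticulin, led with a mean of 123 FPKM over the 4 libraries. It was followed by Hsp90ab1, the constitutive cytosolic HSP90, at 119 FPKM, the constitutive cytosolic HSP70 Hspa8 at 115, the disulfide isomerase Pdia3 at 110 and the ER HSP90 Hsp90b1 at 107. Their ranges over libraries overlapped, so the order among these 5 members is not resolved. Without division by length, Hspa8 at 791 to 1291 CPM lay above Calr at 468 to 553 CPM in every library. Hspa9, Hspd1, Hspe1 and Hspa5 came next, with means between 67.5 and 86.3 FPKM.

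At the other end, the stress-inducible HSP70 genes Hspa1a and Hspa1b had the lowest levels of all members, with means of 0.637 and 0.685 FPKM. Hspa8 was thus at least 83.2 FPKM in every library, while Hspa1a and Hspa1b reached at most 0.751 and 1.03 FPKM. These inducible genes are nearly identical in sequence, so reads may be shared between them and each value is uncertain. The small heat shock protein Hspb1 lay at a mean of 1.98 FPKM. Among ER members, Syvn1, the ubiquitin ligase of ER-associated degradation, at 1.13 FPKM and Ern1 at 2.91 FPKM were lowest.

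**Figure D2:**
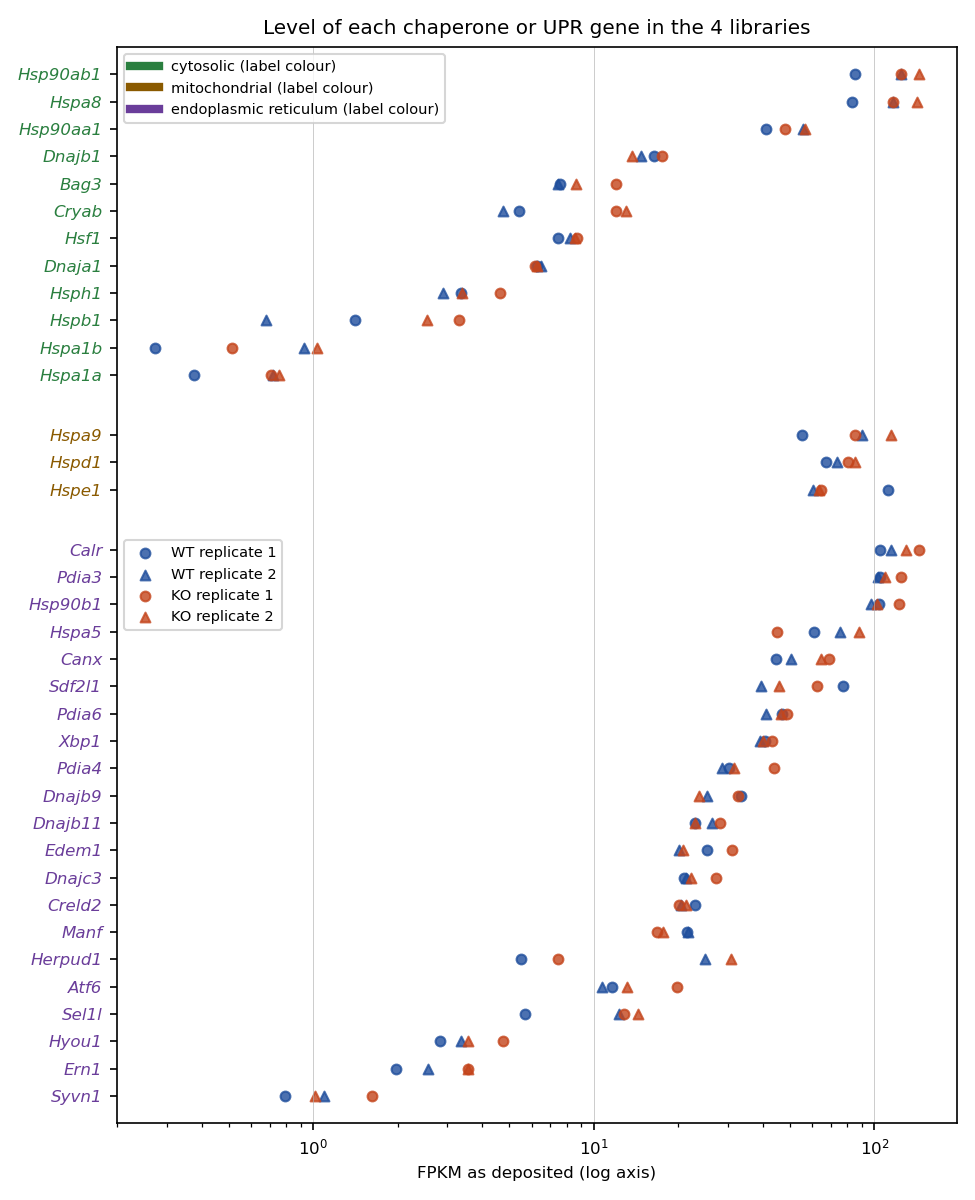
Deposited FPKM of each member (log axis) in the 4 libraries, by compartment and ordered by mean. Blue marks are WT and red marks KO, circles are replicate 1 and triangles replicate 2. Calr, Hsp90ab1 and Hspa8 lie at the top with means of 115 to 123 FPKM, and Hspa1a and Hspa1b lie under or near 1 FPKM in all libraries.

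The genotypes were then compared. None of the 36 members passed the limits of adjusted p under 0.05 and absolute log2 fold change over 1 in edgeR's quasi-likelihood test, nor did any of the 12418 genes tested (0%). DESeq2's Wald test called 181 genes and edgeR's exact test 230 at the same limits, with 0 members in either. Adjusted p-values of members lay between 0.348 and 1.00. In this fit on genotype alone, at an unadjusted p under 0.05, 2 members were higher in KO, Cryab and Hspb1, against 4.64% of all genes tested, and 0 were lower, against 1.99%. Of the members, 23 had a log2 fold change above 0, against 54.6% of all genes, and 13 below 0. Their median was 0.12 with quartiles of -0.10 and 0.27, and the median of all genes was 0.04.

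The KO libraries both exceeded the WT libraries in 7 members (Atf6, Bag3, Calr, Canx, Cryab, Ern1 and Hspb1), against 20.0% of all genes. They lay below in 5 members (Creld2, Dnaja1, Hspe1, Manf and Xbp1), against 16.9%. These shares of members were near those of all genes. With library totals in place of TMM, a setting added after seeing the data, the split was 15 above, against 31.6% of all genes, and 2 below, against 9.39%, and the median log2 fold change of all genes moved to 0.20.

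**Figure D3:**
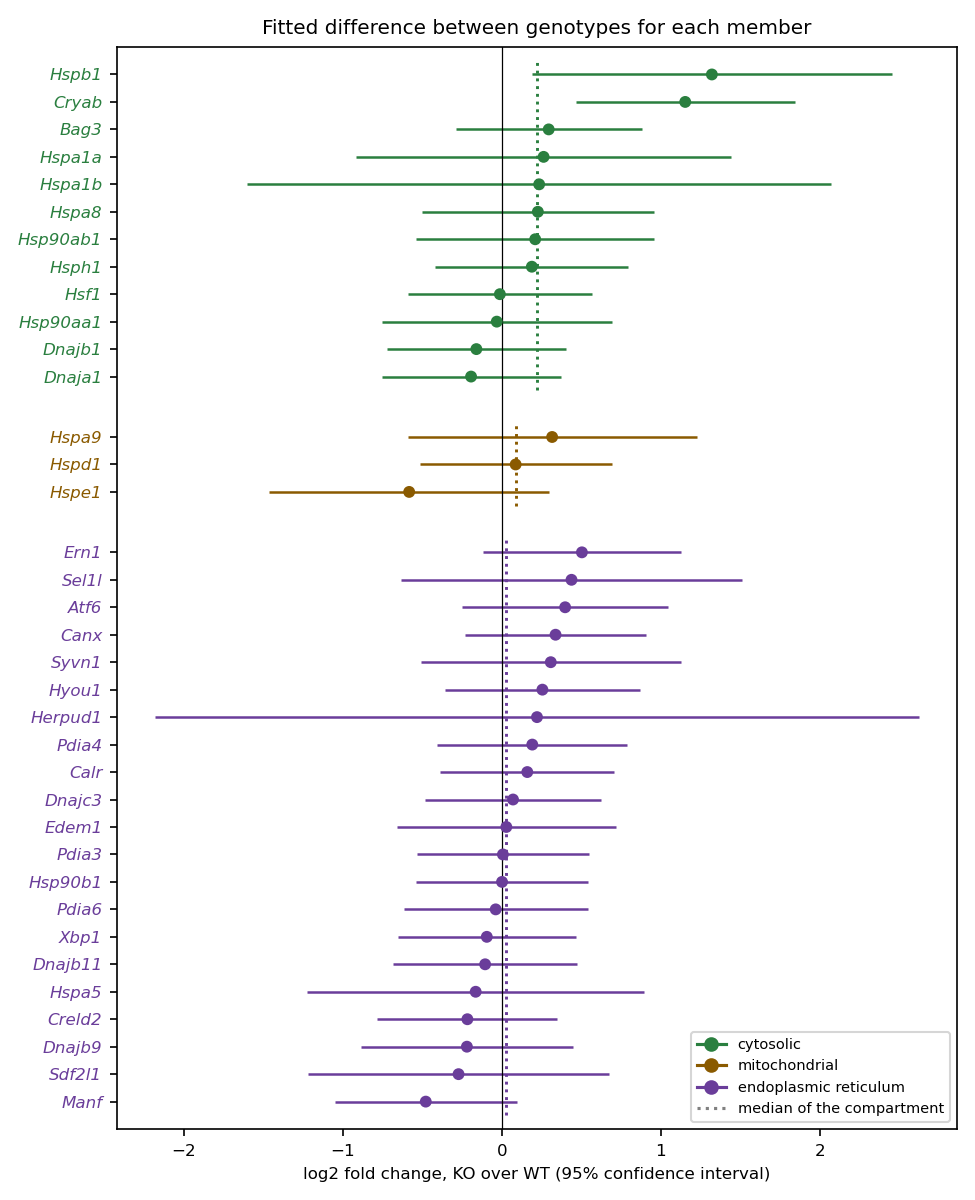
Fitted log2 fold change of KO over WT for each member, with its 95% confidence interval from edgeR's quasi-likelihood fit. Dotted lines mark the median of each compartment. The intervals of Cryab and Hspb1 lie above 0 and those of all other members cross 0.

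Among cytosolic members, Hspb1 and Cryab had the highest log2 fold changes. Cryab encodes αB-crystallin, a holdase that keeps unfolded proteins from aggregating. Cryab had 6.72 and 5.96 CPM in WT and 12.8 and 15.4 CPM in KO (109, 95, 238 and 304 counts). Both KO libraries were above both WT libraries, and the fitted log2 value for KO over WT was 1.15 (SE 0.27, 0.46 to 1.84 at 95% confidence, with an adjusted p of 0.348 by edgeR). Hspb1 (chr5:135887919-135889563, + strand, GRCm38) encodes HSP27, another holdase that also binds actin. It had 2.71 and 1.32 CPM in WT and 5.42 and 4.67 CPM in KO, from 44, 21, 101 and 92 counts. Its log2 fold change was 1.32 (SE 0.45, interval 0.19 to 2.45, with an adjusted p of 0.640 by edgeR). Across the alternative fits listed below, that value ranged from 0.86 to 1.94. Within the libraries numbered 1 and 2, the log2 ratios were 0.92 and 1.37 for Cryab and 0.99 and 1.80 for Hspb1. In the fit on genotype alone, neither gene passed the adjusted threshold over all genes. Without KO replicate 2, the unadjusted p of both genes was above 0.05, and without WT replicate 2 or KO replicate 1 that of Hspb1 was.

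The stromal markers differed in the same direction as these genes. All 12 had a log2 fold change above 0, against 54.6% of all genes, with a median of 2.12. In 10 of the 12 both KO libraries were above both WT libraries, against 20.0% of all genes. This list was chosen with earlier results of these data known. Their sum was 108 and 122 CPM in WT and 486 and 452 CPM in KO. Cryab and Hspb1 are also expressed in contractile and connective tissue cells, and the part of such cells in the result was not tested.

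The constitutive HSP70 and the HSP90 genes were abundant, and their genotypes overlapped. Hspa8, the constitutive HSP70, had 791 and 1126 CPM in WT and 951 and 1291 CPM in KO. Hsp90ab1 had 515 and 765 CPM in WT and 644 and 836 CPM in KO. Its stress-responsive paralog Hsp90aa1 had 282 and 388 CPM in WT and 284 and 371 CPM in KO. In all 3 genes both libraries numbered 2 lay above both numbered 1, and the log2 fold changes between genotypes were 0.23 (SE 0.29), 0.21 (SE 0.29) and -0.03 (SE 0.29). With 1 library left out they ranged from -0.01 to 0.47, from -0.04 to 0.49 and from -0.24 to 0.18. The inducible Hspa1a had 1.17 and 2.26 CPM in WT and 1.88 and 2.23 CPM in KO, from 19, 36, 35 and 44 counts. Hspa1b had 0.801 and 2.76 CPM in WT and 1.29 and 2.89 CPM in KO, from 13, 44, 24 and 57 counts. Both inducible genes were lowest in WT replicate 1 and their genotypes overlapped. The 95% intervals of the log2 fold change ran from -0.92 to 1.44 for Hspa1a and from -1.60 to 2.07 for Hspa1b.

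Hsf1 encodes the transcription factor that controls the cytosolic genes, and its genotypes overlapped. It had 15.7 and 17.6 CPM in WT and 15.7 and 17.3 CPM in KO (log2 fold change -0.01, SE 0.23). The HSP40 cochaperones deliver clients to HSP70. Dnajb1 had 38.8 and 35.4 CPM in WT and 35.4 and 30.9 CPM in KO, and its log2 fold change was -0.16 (SE 0.22). The alternative fits gave between -0.26 and -0.00041 for this gene. Dnaja1 had 91.0 and 95.2 CPM in WT and 76.3 and 86.5 CPM in KO, with both KO libraries below both WT libraries (-0.19, SE 0.22, with an adjusted p of 0.963 by edgeR). Its value lay between -0.46 and -0.04 across the alternative fits. The Dnaja1 locus overlaps 2 other genes in the table, and whether counting used the strand is not stated. Bag3, a cochaperone that couples HSP70 to autophagy, had 20.3 and 20.2 CPM in WT and 27.6 and 22.1 CPM in KO. Its KO libraries were both higher, with a log2 fold change of 0.29 (SE 0.23, for an adjusted p of 0.938 by edgeR), which was 0.13 without KO replicate 1. The remaining cytosolic member, the HSP70 nucleotide exchange factor Hsph1, ranged from 34.7 to 46.7 CPM with overlapping genotypes.

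In mitochondria, Hspe1 had 204 and 112 CPM in WT and 100 and 110 CPM in KO. WT replicate 1 alone was high, and the other libraries lay between 100 and 112 CPM. The log2 fold change of -0.58 (SE 0.35, for an adjusted p of 0.894 by edgeR) became -0.08 without WT replicate 1 and -0.98, with an unadjusted p under 0.05, without WT replicate 2. Its partner gene Hspd1 ranged from 195 to 238 CPM and was lowest in that library. Both genes hold the heat shock element printed above. The gene models of Hspd1 and Hspe1 overlap on opposite strands, so some reads may be shared. Hspa9, the mitochondrial HSP70, ranged from 289 to 574 CPM, and both libraries numbered 2 were above both numbered 1.

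ER chaperones and their cofactors had the lowest median of the ER groups, with a log2 fold change of -0.16 over 9 genes, of which 3 lay above 0 and 6 below. Hspa5, which encodes BiP and carries the promoter shown above, had 445 and 559 CPM in WT and 280 and 615 CPM in KO. The KO libraries enclosed the WT range, and KO over WT on the log2 scale was -0.67 in the libraries numbered 1 and 0.14 in those numbered 2. The pooled log2 fold change was -0.16 (SE 0.42), and without KO replicate 1 it was 0.29. Hsp90b1, the ER HSP90, had 588 and 558 CPM in WT and 593 and 554 CPM in KO, a difference of 0.00 (SE 0.21). Its 95% interval ran from -0.54 to 0.54 on the log2 scale.

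Manf (chr9:106838312-106891979, − strand), which encodes a secreted factor that is retained with BiP and released on ER stress, had 113 and 114 CPM in WT and 74.9 and 87.9 CPM in KO. Both KO libraries lay below both WT libraries, and the log2 fold change was -0.48 (SE 0.23, with an adjusted p of 0.842 by edgeR). The Manf locus overlaps 4 other genes in the table. Creld2, a disulfide isomerase-like ER protein, had 32.9 and 29.5 CPM in WT and 24.7 and 29.0 CPM in KO. Its KO libraries were also lower, by a log2 fold change of -0.22 (SE 0.22, for an adjusted p of 0.959 by edgeR). The value for Creld2 ranged from -0.34 to 0.03 across the alternative fits. The summed markers of B and plasma cells, mast cells and basophils, and neutrophils were lower in KO as well, and their part in these values was not tested.

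The other cofactors overlapped between genotypes. Sdf2l1, a BiP cofactor that is one of the genes most responsive to ER stress, had 90.0 and 46.5 CPM in WT and 62.1 and 50.9 CPM in KO. The value in WT replicate 1 was the high one, and the log2 fold change of -0.27 (SE 0.37) became 0.28 without that library. Dnajb9, an ER HSP40 that restrains IRE1, had 65.1 and 49.9 CPM in WT and 54.5 and 44.2 CPM in KO (-0.22, SE 0.26, and -0.01 without WT replicate 1). Both libraries numbered 2 were below both numbered 1 in both of these genes. Dnajb11 ranged from 100 to 121 CPM, Dnajc3 from 114 to 127 CPM and Hyou1 from 35.4 to 50.7 CPM. Their log2 fold changes lay between -0.11 and 0.25.

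The lectin chaperones calreticulin and calnexin hold glycoproteins in the folding cycle of the ER. Calr had 468 and 517 CPM in WT and 548 and 553 CPM in KO, and Canx 352 and 405 CPM in WT and 468 and 488 CPM in KO. In both genes the KO libraries were above the WT libraries. The log2 fold changes were 0.16 (SE 0.22, with an adjusted p of 0.964 by edgeR) for Calr and 0.34 (SE 0.22, with an adjusted p of 0.908 by edgeR) for Canx. They ranged from 0.07 to 0.32 and from 0.17 to 0.49 across the alternative fits. The disulfide isomerase Pdia4 had 87.5 and 83.7 CPM in WT and 108 and 87.2 CPM in KO, with a log2 fold change of 0.19 (SE 0.24) that was 0.03 without KO replicate 1. Pdia3, the isomerase that works with the lectins, stayed between 431 and 440 CPM in all 4 libraries, the narrowest range of the members relative to its level. Pdia6 ranged from 195 to 220 CPM.

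Of the UPR sensors, Ern1 and Atf6 are members. Ern1, the gene of the kinase and RNase IRE1, had 21.9 and 28.8 CPM in WT and 33.9 and 38.0 CPM in KO. Atf6 had 114 and 106 CPM in WT and 166 and 123 CPM in KO. Both KO libraries were above both WT libraries in each gene, and the log2 fold changes were 0.50 (SE 0.25, with an adjusted p of 0.846 by edgeR) for Ern1 and 0.40 (SE 0.26, with an adjusted p of 0.904 by edgeR) for Atf6. Without KO replicate 1, that of Atf6 was 0.17, and that of Ern1 ranged from 0.28 to 0.68 across the alternative fits. Xbp1, whose mRNA is spliced by IRE1 to yield the active factor, had 193 and 187 CPM in WT and 174 and 181 CPM in KO. It was below WT in both KO libraries by a log2 fold change of -0.10 (SE 0.22, for an adjusted p of 0.981 by edgeR), and with library totals in place of TMM it was 0.06. Spliced and unspliced Xbp1 cannot be told apart in counts per gene.

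ER-associated degradation was represented by 4 genes, with log2 fold changes between 0.03 and 0.44. That of Herpud1 fell below 0 without WT replicate 1 and without KO replicate 2, where it was -1.27, and that of Edem1 without WT replicate 2 and without KO replicate 1, where it was -0.19. In the fit on genotype alone, none of the 4 had an unadjusted p under 0.05, and none had separate genotypes. Herpud1 (chr8:94386438-94395377, + strand), a membrane protein that organises the degradation complex, had 24.5 and 113 CPM in WT and 28.6 and 132 CPM in KO, from 398, 1802, 533 and 2593 counts. The libraries numbered 2 were above those numbered 1 by 2.20 on the log2 scale in WT and by 2.20 in KO, and the genotype log2 fold change of 0.22 had an SE of 0.95. Herpud1 was the only member more than 4-fold above in number 2 in both genotypes, which 1.81% of all genes were. The adaptor Sel1l ranged from 93.9 CPM in WT replicate 1 to 226 CPM in KO replicate 2. Its log2 fold change of 0.44 (SE 0.42) was -0.02 without WT replicate 1 and 1.08, with an unadjusted p under 0.05, without WT replicate 2. Syvn1 ranged from 9.06 to 15.8 CPM, and the mannosidase-like Edem1 from 244 to 326 CPM with both libraries numbered 2 below both numbered 1.

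**Figure D4:**
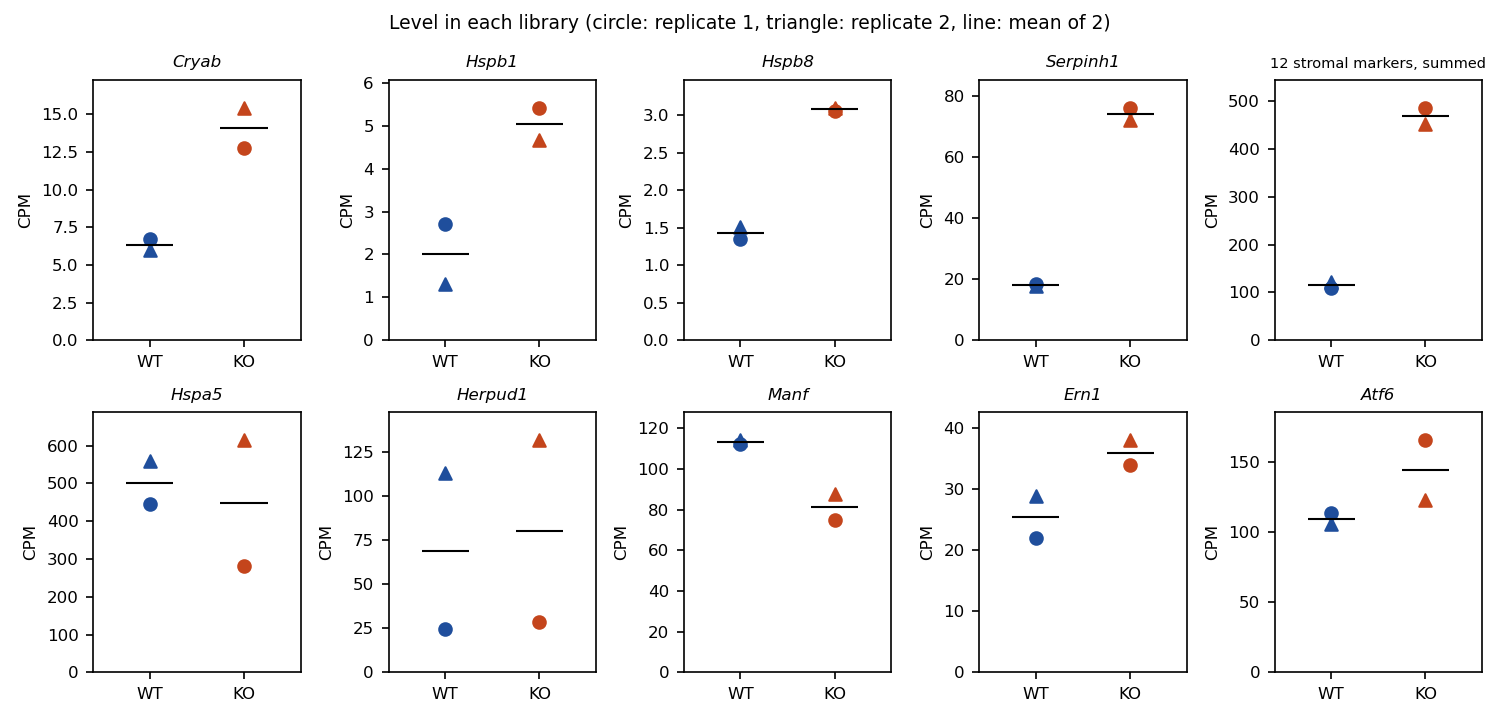
CPM on TMM-scaled totals in each library for 7 members, the chaperone genes Hspb8 and Serpinh1, which are not members, and the sum of 12 stromal markers. Circles are replicate 1, triangles replicate 2 and lines the mean of the libraries, and each axis starts at 0. In the upper row both red marks lie above both blue marks, while in Herpud1 both triangles, at 113 and 132 CPM, lie above both circles, at 24.5 and 28.6 CPM.

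The libraries were also compared by replicate number. Both libraries numbered 2 lay above both numbered 1 in 11 members, against 25.2% of all genes, and below in 8 members, against 23.2%. By compartment, the cytosolic members had 6 above and 2 below, and the ER members 3 above and 6 below. The summed CPM of the cytosolic members was 1805 and 2495 in WT and 2103 and 2718 in KO, higher in number 2 in both genotypes. That of the ER members was 3914 and 4175 in WT and 4061 and 4362 in KO. What the number marks is not stated, so a culture, a preparation date and a sequencing batch cannot be told apart.

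WT replicate 1 had the lowest CPM of the 4 libraries in 16 of the 36 members, where it was lowest in 34.6% of all genes. KO replicate 2 had the highest CPM in 12 members, where it was highest in 17.2% of all genes.

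For the comparison of compartments, the median log2 fold change was 0.22 over the 12 cytosolic members, 0.03 over the 21 ER members and 0.09 over the 3 mitochondrial members. The ER median was lower than the cytosolic median by a difference of -0.19, and the difference was -0.22 within the libraries numbered 1 and -0.10 within those numbered 2. The difference turned to 0.12 without WT replicate 1 and to 0.05 without KO replicate 2, so its direction rested on those libraries. The cytosolic median itself was -0.066 without WT replicate 1. Within the ER, the medians were -0.16 for chaperones and cofactors, 0.16 for lectins and disulfide isomerases, 0.40 for the sensors with Xbp1 and 0.26 for degradation genes. Within the libraries numbered 1 and 2 these medians were -0.26 and -0.02, 0.23 and 0.09, 0.54 and 0.22, and 0.51 and 0.05, in the same order. The median gene length implied by the FPKM was 2885 bases in cytosolic and 4982 bases in ER members, against 5223 bases over all genes.

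**Figure D5:**
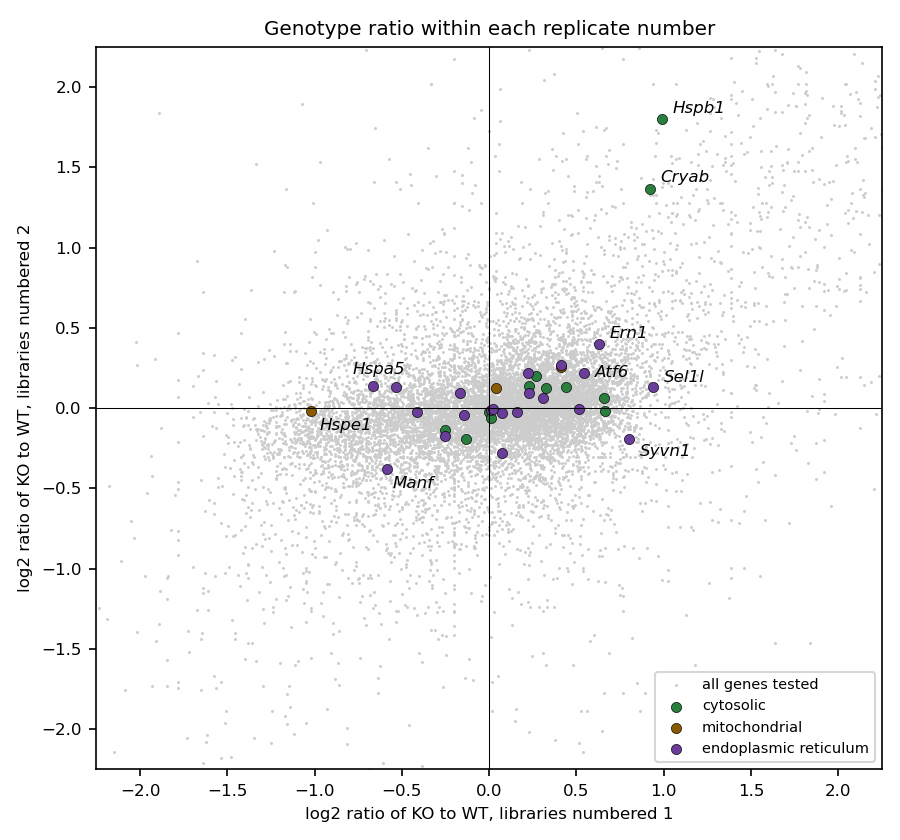
Log2 ratio of KO to WT in the libraries numbered 1 (horizontal) and 2 (vertical), with 0.5 counts added, for the members by compartment and for all genes tested in grey. Genes beyond the axis limits are not drawn. Hspb1 and Cryab lie in the upper right at 0.99 and 0.92 on the horizontal axis, Manf in the lower left, and Hspe1 and Hspa5 to the left at -1.02 and -0.67, at -0.02 and 0.14 on the vertical axis.

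Other genes of these pathways were counted from lists that hold no member. In 39 further cytosolic chaperones and cochaperones, among them the TRiC chaperonin subunits and HSP90 cochaperones, 22 log2 fold changes were above 0 and 17 below, with a median of 0.03. Of 6 further mitochondrial chaperones and proteases, 3 were above and 3 below 0. Of 23 further ER folding genes, 21 were tested, with 13 above and 8 below 0 and a median of 0.12. Of 22 further degradation and signalling genes of the UPR, 18 were tested, with 9 on either side of 0 and a median of 0.05. None was called in edgeR's quasi-likelihood test, and 2 of the 84 tested had an unadjusted p under 0.05, both higher in KO, which is 2.38% against 4.64% of all genes. The KO libraries were both higher in 21 of the 84 genes, 25% against 20.0% of all genes, and both lower in 10, 11.9% against 16.9%. The genes downstream of PERK, Atf4 and Ddit3, had log2 fold changes of -0.22 and -0.19, and that of Eif2ak3, the PERK gene itself, was 0.28.

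The larger of these differences was in Serpinh1, which encodes HSP47, the ER chaperone dedicated to collagen. It had 18.5 and 17.8 CPM in WT and 76.2 and 72.3 CPM in KO, with a fitted log2 difference of 2.03 (SE 0.22, with an adjusted p of 0.216 by edgeR). Hspb8, a small heat shock protein that acts with Bag3, had 1.36 and 1.51 CPM in WT and 3.06 and 3.10 CPM in KO, with a fitted log2 difference of 1.10 (SE 0.35, with an adjusted p of 0.577 by edgeR). Hspb6, another small heat shock protein of these lists, had a log2 fold change of 0.26 (SE 0.49) with overlapping genotypes, and is named here after its value was seen. In Serpinh1 and Hspb8, as in Cryab and Hspb1, the genotypes did not overlap and KO was higher. These genes are set side by side because each had an unadjusted p under 0.05 in edgeR's quasi-likelihood test. Their separation is thus not independent of that choice. The stromal markers, the collagen genes Col1a1, Col1a2 and Col3a1 among them, moved in the same direction. The part of stromal cells in the result was not tested.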

How the data were processed

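Total RNA of 2 WT and 2 KO samples was extracted with Trizol and sequenced on an Illumina NovaSeq. According to the submitters' processing notes and the study's methods, the authors filtered reads with Seqtk, aligned them with HISAT2 2.0.4 and counted fragments per gene with StringTie 1.3.3b. The deposited counts were whole and raw. The deposited FPKM were scaled by gene length and library total only, since the gene length they imply varied by no more than 0.00398% across libraries (10564 genes). The notes name mm39, but 27682 of 34267 matched identifiers had the start, end and strand of GENCODE M21 on GRCm38, and positions are given on GRCm38. The loci of Cryab and 6 other members differed there and are not printed. Whether counting used the strand is not given in the sources used here, and 59 symbols named more than 1 gene.

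The fit used edgeR 4.0.16 under R 4.3.3. Low genes were removed by filterByExpr (count of at least 10, total of at least 15), and libraries were scaled by TMM (factors from 0.942 to 1.11) and compared with glmQLFit and glmQLFTest on genotype alone, two-sided, with Benjamini-Hochberg adjustment over all 12418 genes. Intervals and SE come from the quasi-likelihood F statistic. For ratios between same-numbered libraries, 0.5 was added to each count. Alternatives were DESeq2 1.42.0, edgeR's exact test, limma 3.58.1 on log2(FPKM + pseudocount), other filters, a replicate block and each library left out. Library totals without TMM and a gene length correction (loess, span 0.5) were added after seeing the data. All library pairs differed beyond counting noise, with a chi-square statistic of 23.2 to 127 times its degrees of freedom.

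The members and lists were chosen with earlier results of these data known. Full values are given for 21 members fixed by name, for those with separate genotypes, for the 5 with the largest absolute log2 fold change, and for up to 3 genes per direction of the wider lists with an unadjusted p under 0.05. Of the neutrophil markers Mpo and Elane were at 0, and of the mast cell and basophil markers Mcpt8. T and NK cell markers summed to 0.965 to 2.03 CPM and dendritic markers to 3.70 to 7.59 CPM. Itgam, a macrophage marker, names 2 overlapping genes. Ends of the members' proteins were not analysed here.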

Additional observations from a re-analysis of the deposited data

How the results depend on the processing

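With 2 libraries per genotype, no member passed the adjusted threshold in edgeR's quasi-likelihood fit without a replicate block, and the widest intervals were those of genes that differ between replicate numbers. Leaving out each replicate in turn, no member was called either; the lone library of its genotype was then assumed to vary like the others. The number of members called rose to 2 (Cryab and Hspb1) with a replicate block, with a replicate block and gene length correction together, and where an unadjusted p under 0.05 sufficed. The labels do not say that same-numbered libraries are pairs. Their deviations from the genotype means correlated at 0.734, a hint from the data only, and the block raised the calls over all genes from 0 to 664 (401 with the length correction). At an unadjusted p under 0.05, the block gave 6 members, Cryab, Ern1, Hspb1 and Sel1l higher and Hspe1 and Manf lower in KO, and the length correction alone added Manf to Cryab and Hspb1. Under the block, the adjusted p was 0.000416 for Cryab and 0.00146 for Hspb1; over the alternatives without it, it ranged from 0.130 to 1.00 and from 0.421 to 1.00. DESeq2's Wald test called 181 genes and edgeR's exact test 230, with 0 members among them.

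The cytosolic median log2 fold change was 0.38 on log2(FPKM + 0.1) and ranged from -0.066 to 0.36 with 1 replicate left out. The ER median was -0.014 with DESeq2 size factors and in DESeq2's Wald test, 0.17 on log2(FPKM + 1) and 0.17 on log2(FPKM + 0.1), 0.19 with library totals, and -0.023 to 0.051 with 1 replicate left out. The difference of ER minus cytosolic medians was -0.048 on log2(FPKM + 1) and -0.083 with gene length correction, and ranged from -0.39 to 0.12 with 1 replicate left out. The median of all genes was itself 0.12, 0.19 and 0.20 in both FPKM fits and with library totals. With library totals, 15 members had both KO libraries above WT (31.6% of all genes) and 2 below (9.39%). On counts not divided by length, cytosolic members held 31.6% and mitochondrial members 10.8% of the members' sum.

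The signs of some members turned. DESeq2 size factors and DESeq2's Wald test gave -0.040 for Hsp90b1, -0.014 for Edem1 and -0.033 for Pdia3, and no filter gave -0.017 for Hsp90b1 and -0.011 for Pdia3. The fits on log2(FPKM + 1), on log2(FPKM + 0.1) and with library totals gave 0.049, 0.050 and 0.054 for Dnajb11, 0.13, 0.14 and 0.14 for Hsf1, 0.057, 0.058 and 0.059 for Xbp1, 0.12, 0.13 and 0.11 for Hsp90aa1, and 0.11, 0.12 and 0.11 for Pdia6. Gene length correction, without and with the block, gave 0.029 and 0.028 for Creld2, -0.12 and -0.12 for Hsp90b1, 0.094 and 0.10 for Hsf1, -0.23 and -0.22 for Edem1, -0.062 and -0.055 for Hsph1, -0.046 and -0.048 for Dnajc3, -0.067 and -0.067 for Pdia3, and 0.090 and 0.12 for Sdf2l1. With 1 replicate left out, ranges that crossed 0 were -0.045 to 0.49 (Hsp90ab1), -1.27 to 1.67 (Herpud1), -0.13 to 0.78 (Hspa1a), -0.46 to 1.35 (Hspa1b), -0.0023 to 0.70 (Hspa9), -0.017 to 1.08 (Sel1l), -0.011 to 0.47 (Hspa8), -0.70 to 0.28 (Sdf2l1), -0.15 to 0.051 (Pdia6), -0.068 to 0.049 (Hsp90b1), -0.087 to 0.053 (Hsf1), -0.19 to 0.22 (Edem1), -0.24 to 0.18 (Hsp90aa1), -0.025 to 0.020 (Pdia3), -0.84 to 0.29 (Hspa5), -0.00051 to 0.14 (Dnajc3) and -0.042 to 0.20 (Hspd1). The cause of these shifts was not tested.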
